A study of Oryza sativa Japonica Group with 17 samples.

Results

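Peaks of 2 histone marks along the chromosomes of rice leaves (Oryza sativa, japonica) were compared, namely every H3K27me3 peak of the Cr-DJ library and every H3K9me2 peak of the ZH11 library. The lists held 13385 and 10159 peaks, which are all 23544 histone peaks of the series. Of the H3K27me3 peaks, 13360 lay on chromosomes 1 to 12, and 20 and 5 lay on the unanchored sequences Sy and Un. All 10159 H3K9me2 peaks lay on chromosomes 1 to 12, and all values below refer to these 12 chromosomes.

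The series holds 17 samples of leaves from 12-day-old seedlings, profiled by bisulfite, RNA, small RNA and chromatin immunoprecipitation sequencing. Cr-DJ is wild type from DongJin, the variety in which the mutants of the series were made, and ZH11 is a different variety. The H3K9me2 library is ZH11 by its label, whereas a file list of the series calls it Cr-DJ. Both histone libraries came from unmutated plants, and the osdrm2 small RNA library used at the end came from a mutant of the DNA methyltransferase DRM2. There was 1 library per mark, and no control library entered peak calling. Mark, variety and library therefore cannot be told apart, no difference between the marks was tested, and peaks of 1 library are not replicates. The antibody against H3K27me3 is named in the labels, whereas none is named there for H3K9me2. Peak lists hold no transcript levels, so the tissue could not be checked against marker genes.

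H3K27me3 is laid down by Polycomb repressive complex 2 and marks genes kept silent, many of them regulators of development, mostly in the gene-rich parts of plant chromosomes. H3K9me2 marks silent heterochromatin, above all transposons and repeats, and in plants it is tied to DNA methylation outside CG sites through a loop between histone and DNA methyltransferases. In rice, heterochromatin gathers around the centromeres, and transposons are also scattered between genes along the arms.

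The libraries were of similar depth, with 19709518 filtered reads for H3K27me3 and 19160896 for H3K9me2. Spread over the chromosomes, this is 52.8 and 51.4 reads per kb. Outside the peaks 41.3 and 43.5 reads per kb remained, and over the bases of the peaks there were 194 and 143. The H3K27me3 reads were thus more concentrated in peaks, although the peaks of both marks covered a similar part of the chromosomes, 7.53% and 7.86%.

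The first comparison concerned the size of the peaks. H3K9me2 peaks were longer, with a median of 2466 bp against 1542 bp for H3K27me3. The quartiles were 1315 and 4022 bp for H3K9me2 and 1008 and 2650 bp for H3K27me3. The H3K9me2 median was the longer one on 12 of 12 chromosomes. On single chromosomes it ranged from 1935.5 bp (chromosome 6) to 2796 bp (chromosome 12), whereas the H3K27me3 medians stayed between 1471 and 1585.5 bp.

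The marks differed in the shape of the length distribution as well as in its middle. H3K27me3 peaks were most frequent between 1 and 2 kb, where 39.0% of them fell, and their number dropped steadily beyond. For H3K9me2 the class from 2 to 4 kb was the fullest, with 33.2% of peaks. That class is wider than the one from 1 to 2 kb, which held 26.8% of H3K9me2 peaks. Peaks over 4 kb made up 12.1% of H3K27me3 peaks and 25.2% of H3K9me2 peaks. At the top the ranges met, and the longest peaks measured 9110 and 8704 bp. Both are shorter than the window of 10 kb from which the peak caller took its local background, and whether that window limits peak length was not tested.

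Read density went the other way. The median was 150 reads per kb of peak for H3K27me3 and 128 for H3K9me2, and it was lower for H3K9me2 on 12 of 12 chromosomes. The upper ends lay further apart than the medians: 1% of H3K27me3 peaks exceeded 343 reads per kb and 1% of H3K9me2 peaks exceeded 209. The lowest values, 79.2 and 76.9, were alike.

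The gap between the marks widened with peak length. Among peaks of up to 1 kb the medians were 105 reads per kb for H3K27me3 and 97.2 for H3K9me2, a ratio of 1.08. The median peak-calling scores of this class, 86.0 and 71.5, were the lowest of any class. The lowest scores in the lists were 50.01 and 50.03. Whether the calling limit draws the medians of short peaks together was not tested. From 2 to 4 kb they were 185 and 134, and above 6 kb they were 258 and 159, a ratio of 1.63. Long H3K27me3 peaks were therefore also dense ones, while H3K9me2 density rose less with length. Across peaks, Spearman's rho between length and density was 0.780 for H3K27me3 and 0.776 for H3K9me2, in which length enters both measures. The longest 10% of peaks held 35.6% of the reads in peaks for H3K27me3 and 26.1% for H3K9me2.

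**Figure D1:**
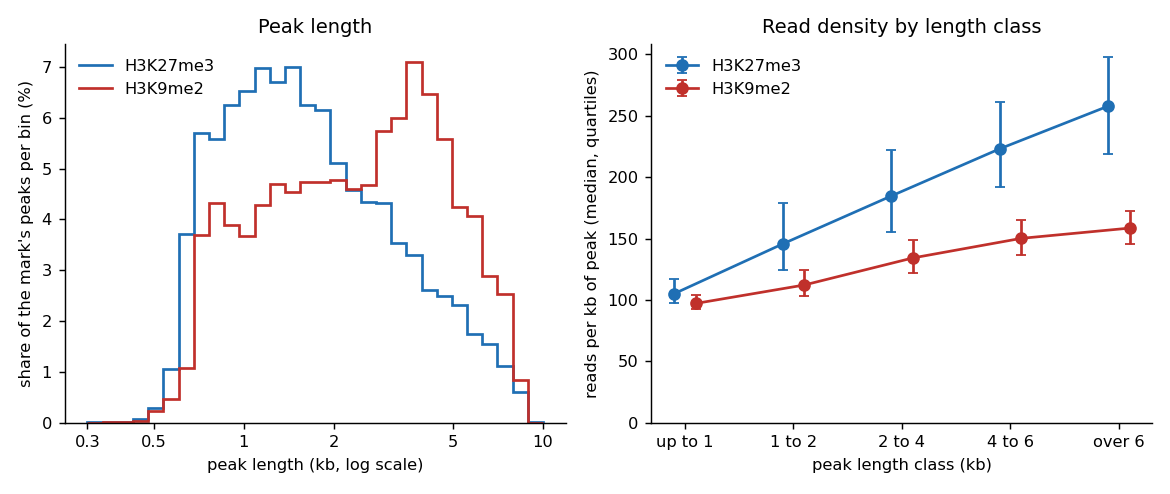
Left, share of each mark's peaks (%) by peak length (kb, log scale), with 13360 H3K27me3 and 10159 H3K9me2 peaks; right, median reads per kb of peak in 5 length classes, with bars from the lower to the upper quartile of peaks. H3K9me2 has more peaks between 2 and 5 kb, and the H3K27me3 medians rise from 105 to 258 reads per kb while those of H3K9me2 rise from 97.2 to 159.

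The fold enrichment, which the authors' peak caller set against background around each peak, did not keep pace with read density. For H3K27me3 its median was 3.9 up to 1 kb, higher at 4.51 from 1 to 2 kb and 4.06 from 2 to 4 kb, and 2.86 above 6 kb. For H3K9me2 it was 3.58 in both classes up to 2 kb, 3.19 from 2 to 4 kb and 2.48 above 6 kb. The longest H3K27me3 peak, on chromosome 12 from 20739445 to 20748554, held 335 reads per kb at a fold of 2.10. The H3K27me3 peak with the most reads, 3724 on chromosome 7 from 10352333 to 10361168, had the lowest fold of all H3K27me3 peaks, 1.76. The window behind the local background is not much longer than these peaks, and its part in their low folds was not tested.

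The longest H3K9me2 peak lay on chromosome 6 from 2817645 to 2826348, with 176 reads per kb. The 5 longest H3K27me3 peaks held between 268 and 421 reads per kb, and the 5 longest H3K9me2 peaks between 172 and 189. The ranges of these extreme peaks did not overlap. Over all peaks above 6 kb the quartile ranges were apart too, from 219 to 298 reads per kb for H3K27me3 and from 145 to 172 for H3K9me2.

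The densest peaks were in part shared between the libraries. The densest H3K27me3 peak, on chromosome 2 from 28715290 to 28717094 with 608 reads per kb, was covered over 98.8% of its length by the fifth densest H3K9me2 peak, which held 540. At the start of chromosome 4 the H3K9me2 peak from 904 to 1987 held 884 reads per kb, the highest value of either mark. The H3K27me3 peak from 974 to 2083 held 544, its second highest. These places were dense in both libraries, which came from different marks and, by their labels, different varieties. Without a control library the read density there in unselected chromatin is not known.

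Another 3 of the densest H3K9me2 peaks stood side by side near the approximate centromere position of chromosome 12, between 11990785 and 12009999, with 633, 569 and 588 reads per kb. H3K27me3 peaks covered 15.3% and 28.7% of the first and second of them and none of the third. The remaining dense H3K27me3 peaks, on chromosomes 8, 12 and 7, held 435 to 439 reads per kb and met no H3K9me2 peak.

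Peaks also lay at the first bases of many chromosomes. Within 5 kb of the start there was an H3K27me3 peak on 6 of 12 chromosomes and an H3K9me2 peak on 7 of 12, and both marks were there on 5. These peaks had a median fold of 14.1 for H3K27me3 and 9.88 for H3K9me2, beside the 4.01 and 3.20 of all peaks. Their densities ran from 97.9 to 544 reads per kb for H3K27me3 and from 154 to 884 for H3K9me2. The medians of all peaks were 150 and 128. The H3K27me3 peak of 97.9, on chromosome 1, had a fold of 5.67 and was the only one below its mark's median. What the chromosome edge does to the local background behind the fold was not tested. The far ends were not counted, since chromosome length was taken as the largest coordinate in the files and is at some ends that of the last peak itself. The highest fold of each mark stood at the start of chromosome 2, where the peaks began at base 1.

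The second comparison asked how peaks of the same mark were spaced. Neighbouring H3K27me3 peaks were closer together in the middle of the distribution, with a median gap of 14.6 kb against 19.04 kb for the fewer H3K9me2 peaks. At the shortest distances the order was the opposite. The next peak lay within 500 bp for 4.60% of H3K27me3 peaks and 6.98% of H3K9me2 peaks, and within 2 kb for 10.3% and 13.3%. Within 5 kb the shares were 22.8% and 22.0%, and within 10 kb they were 39.1% and 34.5%.

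The curves of both marks crossed between 3.7 and 4.4 kb, so which mark is called more clustered depends on the distance chosen. It also depends on which peaks are kept. When the H3K27me3 peaks of lowest score were left out, so that 10159 remained as for H3K9me2, 15.2% had a neighbour within 5 kb against 22.0%. A score of at least 100 for both marks moved the difference the other way, to -4.23 percentage points (H3K9me2 minus H3K27me3). H3K9me2 gaps were thus spread more widely, with more very short ones and more long ones. The longest gaps were alike, 688 kb for H3K27me3 and 692 kb for H3K9me2.

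Peaks were linked into chains where gaps were at most 5 kb. Similar shares of peaks, 40.7% for H3K27me3 and 40.1% for H3K9me2, belonged to a chain of several peaks. Chains of 3 or more peaks numbered 500 for H3K27me3 and 293 for H3K9me2. The longest H3K27me3 chain, on chromosome 7 from 21836692 to 21868695, held 6 peaks over 32.0 kb. The longest H3K9me2 chain, on chromosome 6 from 18663626 to 18708742, held 8 peaks over 45.1 kb, and peaks covered 55.6% of it. With gaps of at most 1 kb the longest chains were 15.4 and 13.9 kb, so no closed domain longer than that appeared for either mark in these lists.

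**Figure D2:**
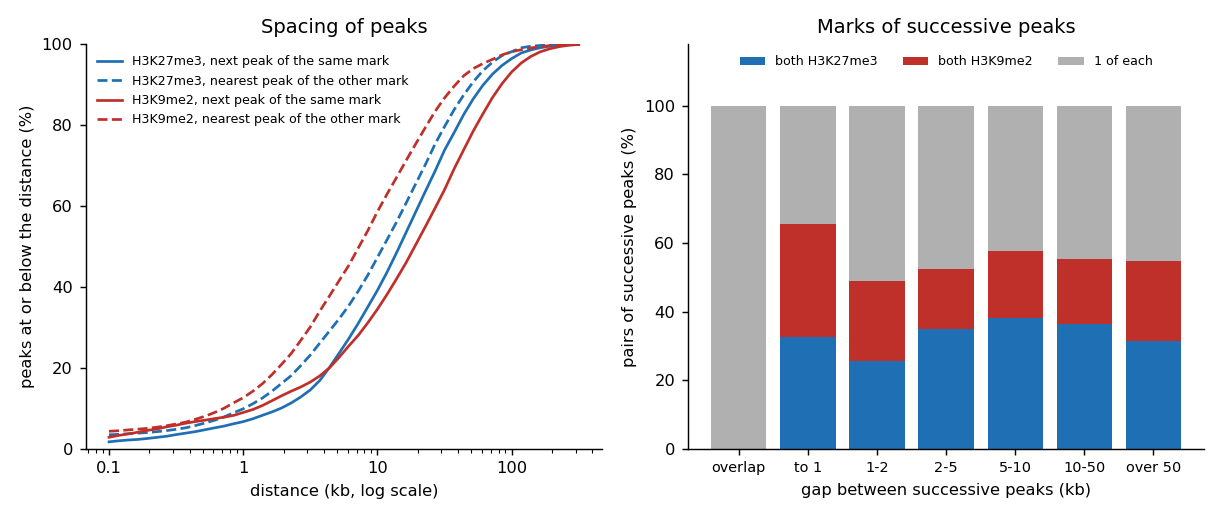
Left, cumulative share of peaks (%) by distance (kb, log scale) to the next peak of the same mark (solid lines) and to the nearest peak of the other mark (dashed lines); right, share (%) of successive pairs of peaks that are both H3K27me3, both H3K9me2 or 1 of each, by the gap between them. The solid lines cross between 3.7 and 4.4 kb. Pairs up to 1 kb apart are of the same mark in 65.7% of cases without the 406 overlapping pairs and in 57.1% with them. The overlapping pairs are all mixed.

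The third comparison set each mark against the other. The peaks rarely coincided: 405 H3K27me3 peaks (3.03%) and 383 H3K9me2 peaks (3.77%) overlapped by at least 1 bp. The shared bases came to 392 kb, with a median overlap of 728 bp. Overlapping peaks were longer than the rest. Their median was 2253 bp against 1532 bp for H3K27me3 and 3033 bp against 2453 bp for H3K9me2, and a longer peak has more room to meet another.

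The distance to the nearest peak of the other mark was taken from every peak. What distances unrelated placement of as many peaks would give was not computed. The median distance was 11.03 kb from an H3K27me3 peak to the nearest H3K9me2 peak and 7.34 kb in the other direction. Within 10 kb a peak of the other mark was found for 47.3% of H3K27me3 peaks and 58.6% of H3K9me2 peaks. H3K9me2 peaks were the nearer ones to the other mark on 12 of 12 chromosomes, and since H3K27me3 has more peaks, they also have more peaks to meet. An H3K9me2 peak was about as often nearer to an H3K27me3 peak as to one of its own mark (49.5%), and an H3K27me3 peak was so in 40.4% of cases.

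Read in order along the chromosomes, successive peaks were of the same mark in 55.0% of 23507 pairs. After an H3K27me3 peak the next was H3K27me3 in 60.4% of cases, beside its share of 56.8% among all peaks. After an H3K9me2 peak the next was H3K9me2 in 47.9%, beside 43.2%. These shares change along the arms. Within 10 equal parts of the arms, numbered from the chromosome end, H3K9me2 was nowhere below its local share. It followed itself in 41.1% of cases beside 36.1% in part 2, and in 56.2% beside 56.2% in part 9. How much of the excess comes from the change of shares along the arms was not tested. Over the whole lists both marks followed themselves slightly more often than their share. Pairs of the same mark made up 51.3% with peaks joined over gaps of at most 1 kb and 52.3% with a score of at least 100. Both settings also change the share of each mark among all peaks. Joining left 12465 H3K27me3 and 9249 H3K9me2 peaks, and the score limit left 10292 and 6850. The excess was not computed there, so it is stated for the whole lists only and may not remain in these settings. Among pairs of the whole lists up to 1 kb apart that did not overlap, 65.7% of 2709 were of the same mark. Peaks of 1 mark cannot overlap each other, so the 406 overlapping pairs were all mixed, and with them the share was 57.1% of 3115, close to that of all pairs. From 1 to 2 kb it was 49.0% of 1829.

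Runs of 1 mark, with no peak of the other between, were mostly short. They had a median of 2 peaks for H3K27me3 and 1 for H3K9me2. Of 5297 H3K27me3 runs 710 reached 5 peaks, and of 5294 H3K9me2 runs 271 did. The marks made up 56.8% and 43.2% of all peaks, and how many such runs these shares alone would give was not computed. A few runs were long. On chromosome 1, 41 H3K27me3 peaks followed each other from 6486757 to 7097616 without an H3K9me2 peak and covered 16.0% of those 611 kb. On chromosome 6, 52 H3K9me2 peaks followed each other from 18227537 to 18796146 and 47 from 14617863 to 15142258, covering 18.4% and 17.96%. On chromosome 8, 30 H3K9me2 peaks lay within 190 kb, from 6899929 to 7090351, and covered 27.7%.

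The second and the third longest stretches without H3K27me3 were those around the H3K9me2 runs on chromosome 6. The longest spanned 688 kb on chromosome 5 from 10128201 to 10815916 and held 18 H3K9me2 peaks, which covered 7.03% of it. The longest stretch without H3K9me2, 692 kb on chromosome 4 from 33939337 to 34631460, held 22 H3K27me3 peaks covering 6.33%. The first lies near the centromere and the second near the chromosome end, its nearer edge 0.862 Mb away.

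Among the 12 chromosomes, chromosome 6 had the lowest median length and the lowest median gap of H3K9me2 peaks, 1935.5 bp and 13.4 kb. Both of its long runs lay between 10 and 20 Mb, an interval chosen after these values were seen. The median of the 555 H3K9me2 peaks there was 1664 bp in length and 8.68 kb in gap. The remaining 505 on the chromosome had medians of 2373 bp and 23.7 kb, and those of the other chromosomes 2552 bp and 19.7 kb. H3K9me2 peaks in this interval were thus short and close together, and they covered 11.9% of it. The 298 H3K27me3 peaks of the interval had a median length of 1630.5 bp, near the 1570.5 bp of the rest of the chromosome. Crowded H3K9me2 peaks were not confined to chromosome 6. The run on chromosome 8 had a median peak length of 1310.5 bp, beside 1478 and 1519 bp in the long runs on chromosome 6. On chromosome 4, from 2000001 to 3000000, 67 H3K9me2 peaks covered 13.7%.

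The fourth comparison followed both marks from the chromosome ends to the centromeres. Centromere positions, to the nearest Mb, were taken from general knowledge of the rice genome and not from the files. Each arm was cut into 10 equal parts, numbered from the end, and the 24 arms were summed. H3K27me3 peaks covered 8.52% of part 1 and between 7.61% and 8.73% as far as part 7. Their cover was 6.83% and 5.99% in parts 8 and 9 and 4.42% in part 10 at the centromere.

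H3K9me2 peaks covered 5.95% of part 1 and 10.7% of part 10, which is 1.79 times as much. Their cover was higher from part 4 on, at 6.77%, and the marks were level in part 7, at 8.73% and 8.71%. The change was mostly one of peak number. From part 1 to part 10, H3K27me3 went from 39.4 to 22.4 peaks per Mb and H3K9me2 from 20.5 to 33.7. The median length per part stayed between 1483.5 and 1615 bp for H3K27me3 and between 2215 and 2856 bp for H3K9me2, with medians of 145.7 to 157 and 124.7 to 131 reads per kb. The longest H3K9me2 median, 2856 bp, was that of part 10, beside 2451 bp in part 9. Between these parts H3K9me2 cover rose from 10.1% to 10.7%, although its peaks went from 35.5 to 33.7 per Mb.

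**Figure D3:**
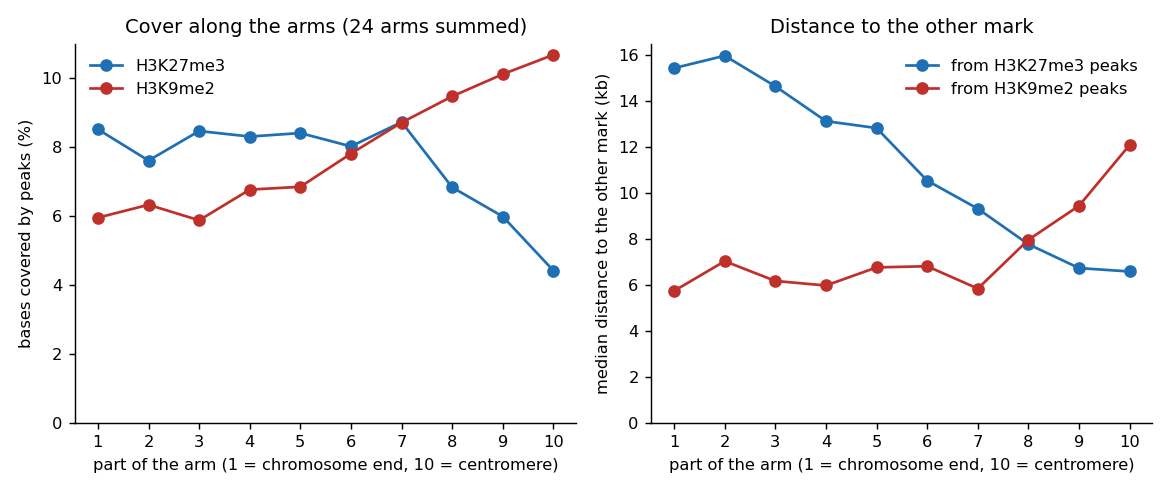
Left, bases covered by peaks (%) in 10 equal parts of each chromosome arm from the end (1) to the approximate centromere (10), summed over 24 arms; right, median distance (kb) from the peaks in each part to the nearest peak of the other mark. H3K27me3 cover falls to 4.42% at the centromere, H3K9me2 cover rises to 10.7%, and the mark that is scarcer in a part lies nearer to the other.

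Single arms mostly followed the sum. Each arm was also divided at its middle into an outer and an inner part of equal length. H3K9me2 cover was higher in the inner part than in the outer part of 22 of 24 arms, and H3K27me3 cover in 4 of 24. The 2 exceptions for H3K9me2 were the left arms of chromosome 4, with 10.6% in the outer part and 10.4% in the inner part, and of chromosome 9, with 10.02% and 8.22%. In these arms H3K9me2 exceeded H3K27me3 in the outer part too, which it did in no other arm. In the inner parts H3K9me2 exceeded H3K27me3 in 23 of 24 arms, the left arm of chromosome 3 being the exception with 6.80% and 7.59%. By total length, 59.6% of the H3K9me2 cover and 45.1% of the H3K27me3 cover lay in the inner parts.

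Measured in Mb from the centromere, H3K27me3 covered 3.28% of the first Mb on either side, 5.40% of the next, and 8.19% from 4 to 8 Mb. H3K9me2 covered 10.6%, 10.7% and 8.67%. Of these classes H3K27me3 was lowest in the first, while H3K9me2 was alike in the first and the second. Both of these are 1 Mb wide and the centromere positions are known only to the nearest Mb. Shifted positions were not tried for these classes, so the shape within the innermost 2 Mb is uncertain. The sources used here do not say how reads with several possible places were handled. Distances followed the densities. From an H3K27me3 peak the nearest H3K9me2 peak was a median of 15.5 kb away in part 1 and 6.59 kb in part 10, and in the other direction the medians were 5.74 and 12.1 kb.

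In 368 windows of 1 Mb, H3K27me3 cover ranged from 0.681% to 16.1% and H3K9me2 cover from 1.78% to 17.1%. High cover of one mark went with low cover of the other only loosely. H3K9me2 was the higher in 48 of 177 windows of the outer parts and in 132 of 191 windows of the inner parts. Spearman's rho over windows, which share libraries and reads, was -0.299 in all, -0.082 in the outer parts and -0.289 in the inner parts. By chromosome it ran from -0.536 (chromosome 9) to 0.079 (chromosome 3).

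The windows at the extremes had opposite values of the other mark in some cases but not in all. The lowest H3K27me3 cover, 0.681% from 6 peaks, was on chromosome 8 from 13000001 to 14000000, at the centromere, where 31 H3K9me2 peaks covered 9.80%. The highest H3K9me2 cover, 17.1%, was on chromosome 7 from 10000001 to 11000000 beside 5.98% of H3K27me3. The highest H3K27me3 cover, 16.1%, was on chromosome 11 from 18000001 to 19000000, with 7.41% of H3K9me2. On chromosome 1 from 10000001 to 11000000 both were high, at 16.0% and 10.3%. The lowest H3K9me2 cover, 1.78%, was near the end of chromosome 4, from 34000001 to 35000000, with 6.24% of H3K27me3.

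**Figure D4:**
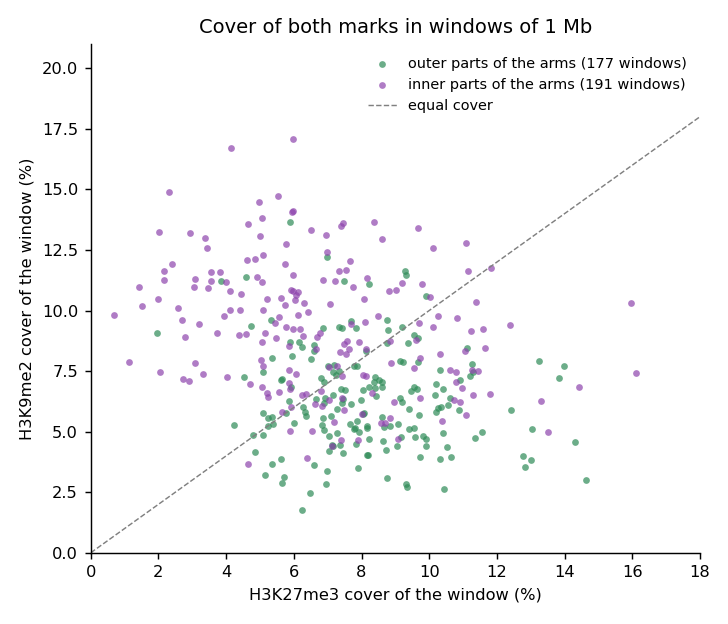
H3K9me2 cover (%) against H3K27me3 cover (%) in 368 windows of 1 Mb, coloured by the part of the arm they lie in; the dashed line marks equal cover. Windows of the inner parts lie above the line in 132 of 191 cases and those of the outer parts in 48 of 177.

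The last comparison used a readout that played no part in calling the peaks. Small RNAs of 24 nt guide DRM2 to its targets, and 1 list of such positions each was at hand for Cr-DJ, with 11144 positions on the 12 chromosomes, and for osdrm2, with 20334. The lists hold positions with reads and do not give the depth of the libraries, so levels were not compared between them. In Cr-DJ, 6.98% of H3K27me3 peaks (932; exact binomial 95% interval 6.55 to 7.42) and 1.05% of H3K9me2 peaks (107; 0.864 to 1.27) held a listed position. The intervals cover counting error only. With only positions of at least 10 reads the shares were 1.45% and 0.157%, and the difference (H3K9me2 minus H3K27me3) went from -5.92 to -1.29 percentage points. Per Mb of peak there were 44.9 positions in H3K27me3 and 6.99 in H3K9me2, beside 29.9 per Mb of chromosome.

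In H3K27me3 peaks the share with a Cr-DJ position rose with length, from 1.59% up to 1 kb to 28.7% above 6 kb. A longer peak has more bases to hold one, but positions per Mb rose too, from 25.9 to 58.1. In H3K9me2 peaks the share stayed between 0.890% and 1.33% over the length classes, and positions per Mb fell from 16.6 to 2.84. The marks were thus nearest each other in the shortest peaks and furthest apart in the longest.

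In osdrm2, 7.77% of H3K27me3 peaks and 9.16% of H3K9me2 peaks held a listed position, so the marks were close together there. Per Mb of peak there were 50.7 positions in H3K27me3 and 43.2 in H3K9me2, beside 54.5 per Mb of chromosome. With only positions of at least 10 reads the order of the shares turned, to 0.26 percentage points lower in H3K9me2 peaks. In H3K27me3 peaks there were 34.4 positions per Mb up to 1 kb, 32.2 from 1 to 2 kb and 67.9 above 6 kb. In H3K9me2 peaks the density fell over the classes from 116 to 25.2. The H3K9me2 peaks came, by their label, from ZH11, which is neither of these, and whether they mark the same places in Cr-DJ or osdrm2 was not measured.

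**Figure D5:**
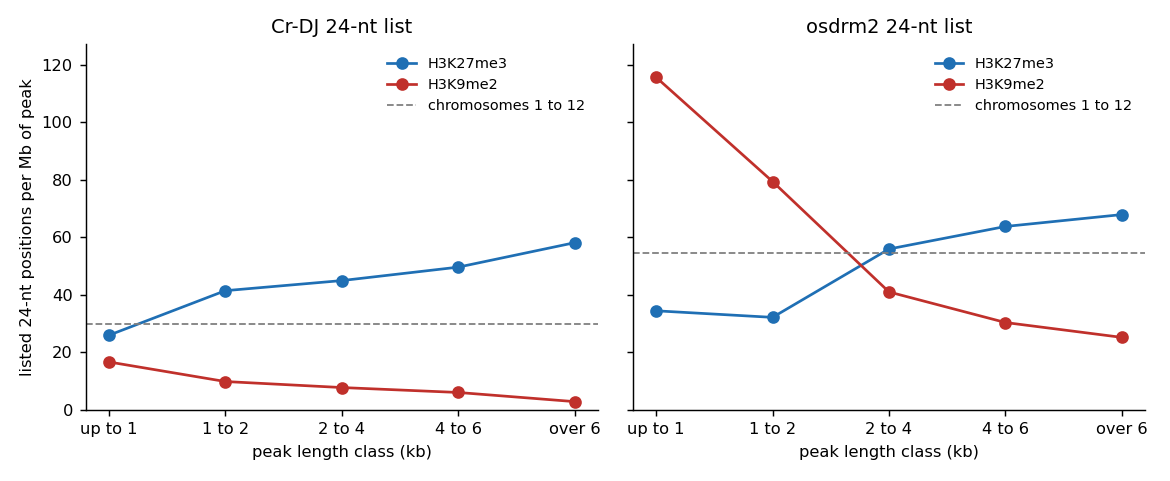
Listed 24-nt positions per Mb of peak in 5 classes of peak length, for the Cr-DJ list (left) and the osdrm2 list (right); the dashed line is the density over chromosomes 1 to 12. In both lists the density is higher in the longest than in the shortest H3K27me3 peaks and falls with length in H3K9me2 peaks, from 16.6 to 2.84 in Cr-DJ and from 116 to 25.2 in osdrm2.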

How the data were processed

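The authors called peaks with MACS 1.4.2 on 1 library per mark, per the file headers, with a p-value limit of 1e-05, no control, an effective genome size of 401 Mb and local background from 10 kb. Each peak's read count, score and fold enrichment are the authors' deposited values, where the score is a transformed p-value and the fold a ratio of peak height to background nearby. Bowtie2 2.1.0 is named in the submitters' processing notes without a role, and the genome build is not given in the sources used. The label and header of the H3K9me2 library say ZH11 and a file list of the series says Cr-DJ, so ZH11 rests on the label. Counts of identical lines in the deposited 24-nt lists gave reads per position.

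Densities are reads divided by peak length. Gaps are edge to edge, overlaps start at 1 bp, and successive peaks are ordered by midpoint. Chromosome length is the largest coordinate in the files. Parts of arms use centromere positions from general knowledge. Shares have exact binomial intervals. The members, lists and rules were chosen with earlier results of these data known. Regions were named by rule: per mark the 5 longest and 5 densest peaks, the 3 longest chains, runs and stretches without the mark, and the 3 highest and 3 lowest full windows of 1 Mb. Peaks at chromosome starts and the interval on chromosome 6 fall outside it. No test was run, since each mark has 1 library. Alternatives covered a score of at least 100, joined peaks, equal numbers of peaks, other distances, shifted centromeres and 24-nt positions of at least 10 reads. The 7 interval functions were tested on simulated data and gave the right value in 100.0% of cases over 904 simulated peaks. Python 3.11.15 with pandas 2.3.3, numpy 2.4.6 and scipy 1.17.1 was used. The other files of the series were not used here.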

Additional observations from a re-analysis of the deposited data

How the results depend on the processing

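No paired analysis was possible because each mark has 1 library and no result comes from a test. Of 42 alternative values, 20 stayed within the interval of the value reported, 19 moved beyond it and 3 changed sign. The intervals were those of medians over peaks or of binomial shares, and for arm cover that of the share of peak midpoints. They treat peaks as independent, which peaks of 1 library are not, and serve only as a yardstick. Differences and ratios are H3K9me2 against H3K27me3. With a score of at least 100 (10292 and 6850 peaks), the density ratio went from 0.851 to 0.805, the difference in neighbours within 5 kb from -0.77 to -4.23 percentage points, pairs of the same mark from 55.0% to 52.3%, the ratio of distances to the other mark from 0.665 to 0.601, the difference in cover of the inner arm parts from 14.4 to 11.3 points, and that in Cr-DJ 24-nt positions from -5.92 to -6.76. With peaks joined over gaps of at most 1 kb (12465 and 9249), the length ratio went from 1.599 to 1.74, neighbours to -2.91, pairs to 51.3% and 24-nt positions to -6.43. With 10159 peaks each, which leaves out H3K27me3 peaks of low score, the length ratio was 1.37, the density ratio 0.768, neighbours 6.78 (turned), pairs 53.0%, the distance ratio 0.907 and 24-nt positions -6.80. Neighbours within 2 kb differed by 2.996 (turned) and within 10 kb by -4.66. Distances between midpoints gave a ratio of 0.733, and arm parts set by distance from the ends a difference of 11.1. With positions of at least 10 reads, the difference was -1.29 in Cr-DJ and went from 1.39 to -0.26 (turned) in osdrm2. Leaving out chromosome 6 from 10 to 20 Mb, chosen after seeing the data, gave a length ratio of 1.65. Dropping or joining peaks also changes the share of each mark among all peaks, beside which the pairs of the same mark must be read. Causes were not tested. The lowest density in the lists was 79.2 reads per kb for H3K27me3 and 76.9 for H3K9me2, and depth was not varied.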

Other observations

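Some stretches held no peak of either mark. The 3 longest spanned 239 kb on chromosome 5 from 9776806 to 10015411, 225 kb on chromosome 5 from 10360214 to 10584850, and 209 kb on chromosome 11 from 13012307 to 13221396. They lay 2.10, 1.53 and 1.12 Mb from the approximate centromeres. The Cr-DJ list had 0, 0 and 2 positions of 24 nt in them and the osdrm2 list 4, 3 and 5.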
